A study of Mus musculus with 5 samples.

Results

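The muscle miRNAs of miR-1, miR-133 and miR-206 were followed in mouse back skin before and after wounding, as 6 mature miRNAs out of the 1900 mouse miRNAs on the array. They are mmu-miR-1a-3p, mmu-miR-206-3p, mmu-miR-133a-3p, mmu-miR-133a-5p, mmu-miR-133b-3p and mmu-miR-133b-5p, and they were chosen by name and by measured values: the arms of miR-133a and miR-133b had been selected on their differing ratios in these same arrays. Values below are therefore a description of the arrays and carry no test.

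The study asked how changes in miRNA levels while a wound closes differ between aged and young skin. It profiled the wounds of young mice on an array of another maker, and those are not among the arrays described here. Total RNA was labelled with Cy3 and hybridised to a single-colour array, with 1 array for each of 5 conditions, all from female mice: unwounded skin of 2-year-old mice (aged D0), skin of 2-year-old mice on day 3 (D3), day 5 (D5) and day 7 (D7) after a 3 mm punch wound through the full thickness of the skin, and unwounded skin of 8-week-old mice (young D0). The back skin was in telogen, the resting stage of the hair cycle. The strain, and the number of mice behind each RNA sample, are not given in the sources used here. With no second array in any condition, the spread between animals is unknown, and the error given is that of the 2 repeat spots that each miRNA has on an array, which is technical.

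miR-1 and miR-133 are made in skeletal and heart muscle, where miR-1 favours differentiation of muscle cells and miR-133 their proliferation, and miR-206 is a relative of miR-1 restricted largely to skeletal muscle and known from regenerating fibres. Mouse back skin carries a thin sheet of skeletal muscle, the panniculus carnosus, beneath the dermis and fat. Each miRNA hairpin can give a mature strand from its 5′ side (5p) and from its 3′ side (3p); usually the more abundant strand acts as the guide, and the miRNA pairs with its targets mainly through the seed, the stretch near its 5′ end.

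Mature sequences were found in RefSeq (GRCm38.p6) for 3 of the 6 miRNAs, and all 3 were identical to the targets listed for the array. They are shown because the strands of miR-133b are those that differed most, with the seed (bases 2 to 8) in capitals. All lie on the plus strand of chromosome 1 in miRNA genes, miR-206-3p at chr1:20679055-20679076, miR-133b-5p at chr1:20682797-20682818 and miR-133b-3p at chr1:20682834-20682855.
miR-206-3p: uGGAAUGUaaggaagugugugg
miR-133b-5p: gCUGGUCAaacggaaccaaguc
miR-133b-3p: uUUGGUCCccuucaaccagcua
Both strands of miR-133b come from a single hairpin of 119 bases at chr1:20682769-20682887, shown here with the 5p strand and then the 3p strand in capitals.
Mir133b hairpin: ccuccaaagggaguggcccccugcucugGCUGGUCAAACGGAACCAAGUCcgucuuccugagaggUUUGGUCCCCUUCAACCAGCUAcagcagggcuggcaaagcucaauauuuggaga
The Mir206 hairpin precedes it on the same strand, with 3686 bases between them. In the array's listed targets, miR-1a-3p and miR-206-3p share the seed GGAAUGU and differ at 4 of 22 bases. miR-133a-3p and miR-133b-3p share the seed UUGGUCC and are identical over their first 21 bases, differing only at the last of 22, so their probes may read the same RNA. The 5p strands of miR-133a and miR-133b differ at 3 of 21 bases, of which 1 lies in the seed, and the seed of miR-133b-5p, CUGGUCA, belonged to no other miRNA on the array.

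Values are given on 2 scales. The scanned intensity is the mean brightness of both repeat spots as deposited, in arbitrary units, without normalization. Ratios between arrays are of background-corrected values after quantile normalization, and a miRNA is counted as lower or higher where this ratio is at least 2-fold. The detection level of each array is the 95th percentile of its 4 empty spots, and a miRNA is called bright where its scanned intensity is over 2 times this level. All 6 miRNAs were above the detection level on all 5 arrays. Of the 1900 miRNAs, 589 were above it at aged D0, 1768 on D3, 1071 on D5, 1559 on D7 and 691 at young D0. On D3, D5 and D7 the level lay below the median miRNA spot, so detection there says little. The detection level was 105 and 107 on the arrays of unwounded aged and young skin, and 58.3, 61.1 and 99.0 on those of D3, D5 and D7, and 210 to 342 miRNAs were bright on an array. Over miRNAs bright on both arrays, the repeat spots gave the SD of a log2 ratio from a single spot. It was 0.202 for D3 to D0, 0.19 for D5, 0.349 for D7 and 0.195 for aged to young skin. Ratios are given as means of both spots unless stated, and for such means this SD is smaller. Levels of different miRNAs are not compared, because each probe has its own response.

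**Figure D1:**
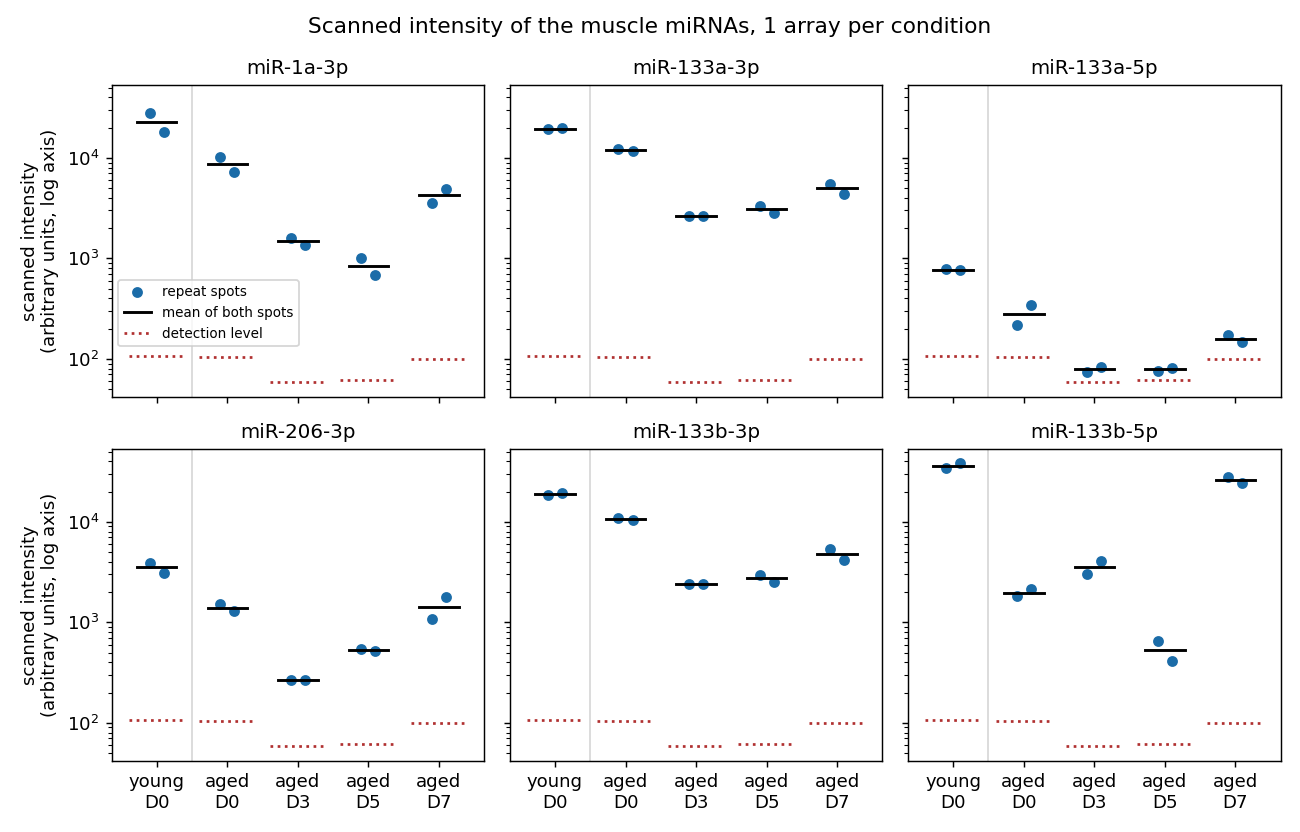
Scanned intensity (arbitrary units, log axis) of each muscle miRNA in young unwounded skin (young D0) and in aged skin at D0, D3, D5 and D7; points are the 2 repeat spots on the 1 array of each condition, black lines their mean and dotted lines the array's detection level. On D3, 5 miRNAs were dimmer than at aged D0, and on D5 all were. miR-133b-5p was at 26218 on D7 and 36276 at young D0, against 535 to 3572 on the other arrays.

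In the aged wound on D3, all muscle strands except miR-133b-5p were at least 2-fold lower than in unwounded aged skin. 5 of the 6 miRNAs were lower and 1 higher, where of the 345 miRNAs bright on at least 1 of both arrays 12.8% were at least 2-fold lower and 17.7% at least 2-fold higher. The median log2 ratio of the 6 was -1.76, beside -0.05 over those 345. The 345 include many miRNAs bright on D3 alone, as 342 were bright on D3 and 210 at aged D0. Over the 207 bright on both arrays the median was -0.36. Unlike many of the 345, all 6 muscle miRNAs were bright at aged D0. Among the lower ones, miR-133a-5p was not bright on D3, and the probes of miR-133a-3p and miR-133b-3p may read the same RNA. In a sample of whole tissue, fewer muscle cells and less of these miRNAs per cell cannot be told apart.

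miR-206-3p, the strand of the miR-206 hairpin listed here, had a scanned intensity of 1405 at aged D0, 267.1 on D3, 529.8 on D5, 1436 on D7 and 3520.1 at young D0. The D3 array was thus the lowest of the 5, and the D7 and aged D0 arrays were nearly level on the scanner. After normalization the D3/D0 ratio was 0.190 (0.177 and 0.203 from the separate spots), the lowest among the 345 bright miRNAs. From D3 on the ratio turned upwards: D5 was 2.67 times D3, and D7 was 3.78 times D3. miR-206-3p was the sole muscle miRNA at least 2-fold higher on D5 than on D3, where 5.93% of 354 bright miRNAs were; under the other scalings tried its D5/D3 ratio ranged down to 1.96. On D7 it stood at 0.716 of D0, with 0.538 and 0.952 from the separate spots. This is a log2 ratio of -0.48, where the SD of a single-spot ratio was 0.349.

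miR-1a-3p, the muscle miRNA with the same seed as miR-206-3p, had a scanned intensity of 8734 at aged D0, 1480.0 on D3, 849.9 on D5, 4269 on D7 and 22934 at young D0. It was lowest on D5 rather than on D3, and both wound values lay far from D0. Its ratio to D0 was 0.253 on D3 and 0.170 on D5, the latter the lowest of the 296 miRNAs bright on at least 1 of the D5 and D0 arrays. It then stood 3.15 times higher on D7 than on D5 and at 0.534 of D0, with 0.40 and 0.713 from the separate spots. The order of D3 and D5 was therefore opposite for the seed relatives: D5 over D3 was 0.671 for miR-1a-3p and 2.67 for miR-206-3p. Both directions were kept over all 7 scalings, with 0.556 to 0.686 for miR-1a-3p and 1.96 to 2.67 for miR-206-3p.

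miR-133a-3p, the guide strand of miR-133a, had a scanned intensity of 11977 at aged D0, 2639 on D3, 3078 on D5, 4969 on D7 and 19609 at young D0. miR-133b-3p, its counterpart with the other final base, was at 10689.5, 2394, 2767, 4780.1 and 18909.5 on the same arrays. Both were lowest on D3, higher at each later day on the scanner, and below aged D0 on all 3 wound arrays. Their D3/D0 ratios were 0.342 and 0.343, their D5/D0 ratios 0.520 and 0.521 (0.559 and 0.483, and 0.548 and 0.494, from the separate spots), and their D7/D0 ratios 0.458 and 0.498. The scanner values of D7 were above those of D5, but after normalization D7 over D5 was 0.882 and 0.958. The log2 patterns of the pair over the 5 arrays differed by a root mean square distance of 0.05, the smallest to either of them among 398 other bright miRNAs, and how much of this comes from shared binding of their RNA was not tested.

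On D5, 3 of the 6 miRNAs were at least 2-fold lower than at D0, namely miR-1a-3p, miR-133a-5p and miR-133b-5p, where 8.45% of the 296 bright miRNAs were. miR-133a-5p was bright at aged D0 but not on D5. The other members lay just outside this limit, with ratios of 0.505 for miR-206-3p, 0.520 for miR-133a-3p and 0.521 for miR-133b-3p. The count depended on the scaling: it was 6 without normalization between arrays, with scaling to the 75th percentile, with cyclic loess, with scaling to spike controls and in the authors' processed values, and 5 with scaling to the median. The median log2 ratio of the 6 was -1.22, beside 0.09 over the 296 and -0.1 over the 204 bright on both arrays.

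On D7, 3 of the 6 were at least 2-fold lower than at D0 (miR-133a-3p, miR-133b-3p and miR-133a-5p), where 8.09% of 309 bright miRNAs were, and 1 (miR-133b-5p) was at least 2-fold higher, where 12.9% were. Of the 3 lower ones, the probes of miR-133a-3p and miR-133b-3p may read the same RNA. miR-133a-5p was bright at aged D0 but not on D7, at 1.61 times the detection level. miR-133b-3p, with a ratio of 0.498, lay just inside the limit, and miR-1a-3p, with 0.534, just outside. Over the scalings the count lower on D7 was 2 to 4. miR-133a-5p passed the limit no longer without normalization (log2 ratio -0.96) or with scaling to the median (-0.90) or spike controls (-0.95), and miR-1a-3p passed it with the 75th percentile (-1.72), cyclic loess (-1.12), spike controls (-1.02) and without normalization (-1.04). Repeat spots differed more in this comparison than in the others: the ratio of miR-133b-3p was 0.563 from the first spots and 0.441 from the second. The median log2 ratio of the 6 was -0.96, beside 0.02 over the 309 and -0.16 over the 203 bright on both arrays. Between D5 and D7, miR-1a-3p and miR-133b-5p were at least 2-fold higher on D7, where 9.2% of 326 bright miRNAs were.

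**Figure D2:**
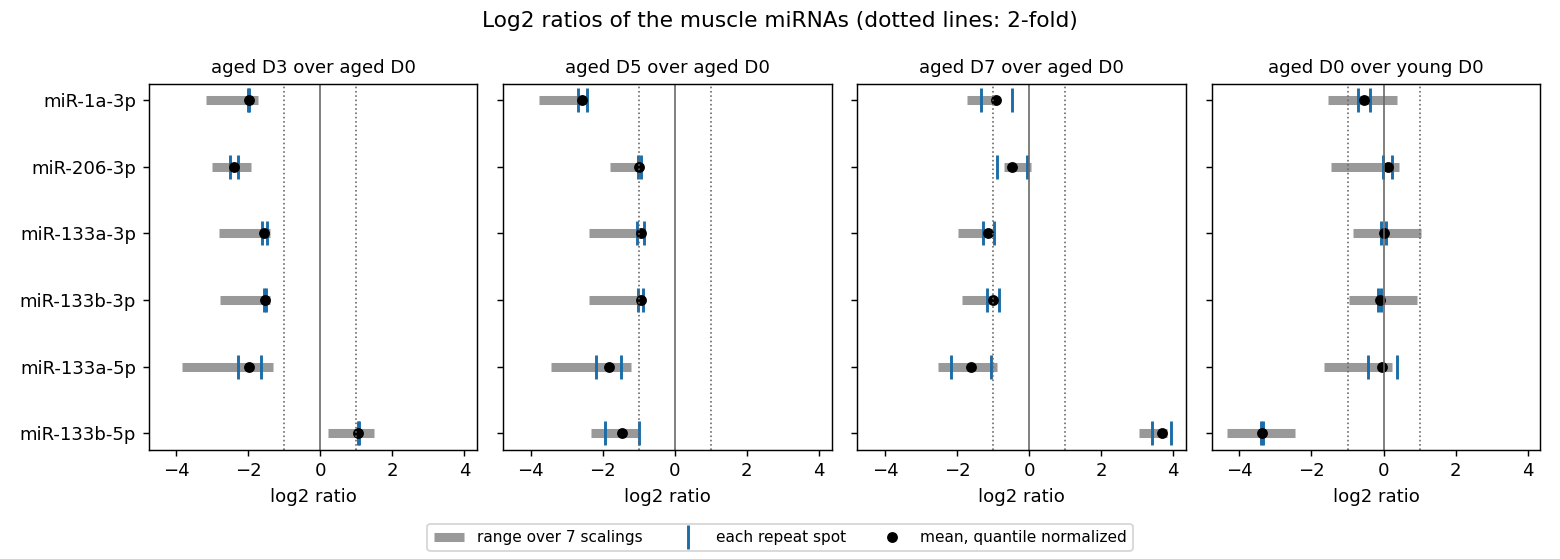
Log2 ratios of the muscle miRNAs between arrays after quantile normalization (black points), with each repeat spot (blue ticks), the range over 7 scalings (grey bars) and the 2-fold limits (dotted lines). The bars of 5 miRNAs lie below 0 on D3 and those of all the muscle miRNAs on D5, while miR-133b-5p reached 3.68 on D7 and -3.38 for aged over young skin.

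miR-133b-5p, the opposite strand of the miR-133b hairpin, did not follow the others. The unwounded arrays gave scanned intensities of 1983 in aged and 36276 in young skin, and the wound arrays 3572 (D3), 534.9 (D5) and 26218 (D7). The D7 and young D0 arrays were high and the 3 other arrays low, with the dimmer of the high arrays 7.34 times the brightest of the low ones on the scanner and 4.98 times after normalization. Both repeat spots showed this: the first spot read 28079 on D7 and 34059 at young D0 against 657 to 3059 on the other arrays, and the second 24356 and 38491 against 413 to 4085. After normalization the D7/D0 ratio was 12.8, with 15.4 and 10.6 from the separate spots, the highest of the 309 bright miRNAs. From D5 to D7 the ratio was 35.3, and from D3 to D5 it was 0.174. The D3/D0 ratio was 2.09, close to the 2-fold limit, and between 1.16 and 2.82 over the scalings. The D7/D0 ratio stayed between 8.25 and 14.3 over the same scalings.

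The spots of miR-133b-5p lie apart on the array, at row 26, column 2 and at row 48, column 17. The medians of the 8 neighbouring spots were 62.3 to 119 on all arrays, and on D7 the brightest neighbour read 8074 beside the first spot (let-7f-5p) and 4216 beside the second (miR-133b-3p). Both spots were brighter than every neighbour on D3, D7 and at young D0, where the brightest neighbours read 18589 and 19230 (miR-133b-3p). At aged D0 and on D5 a neighbour was brighter than each spot. It read 10857 and 10522 at aged D0, against 1834 and 2131, and 4035 and 2549 on D5, against 657 and 413. Whether bright neighbours changed the reading of these spots was not tested.

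The arms of each hairpin were compared as the log2 ratio of the 5p strand minus that of the 3p strand. Any single factor per array cancels in this gap, but quantile normalization is not a single factor and can change it. Without normalization between arrays the gap of miR-133b was 3.0 on D3, 0.05 on D5 and 4.9 on D7 against aged D0. For aged over young skin it was -3.37. After quantile normalization these gaps were 2.61, -0.52, 4.68 and -3.28. On D7 the 5p strand was thus 12.8 times its D0 value while the 3p strand, from the same hairpin, was at 0.498 of it, a 25.7-fold divergence, with gaps of 4.77 and 4.59 from the separate spots. This was the largest of 24 hairpins with both strands measured, whose median absolute gap was 0.47, and miR-6965 followed with 2.72. On D3 it was also the largest, of 23 hairpins with a median of 0.58. The D5 gap was inside the range of the others, with 9 of 20 hairpins larger, and its spots gave -0.12 and -0.93. Between the D5 and D7 arrays, 1 for each day, the gap of miR-133b was 5.20, a 36.8-fold divergence. Over the scalings the D7 gap was 4.68 to 4.91.

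For miR-133a, the arms differed by less than those of miR-133b on D3, on D7 and between ages. On D5 they differed by more, with a gap of -0.89 beside -0.52. The direction of the miR-133a gap against aged D0 depended on the scaling. miR-133a-5p had a scanned intensity of 280.1 at aged D0, 79.0 on D3, 78.6 on D5, 159.4 on D7 and 775.1 at young D0. It was bright in unwounded skin alone, at 2.66 times the detection level at aged D0 and 7.23 times at young D0, and on the wound arrays it was at 1.29 to 1.61 times that level. Against D0 its ratio was 0.256 for D3, 0.281 for D5 and 0.327 for D7. The gap to miR-133a-3p was -0.42 on D3, -0.89 on D5 and -0.49 on D7, with spots of -0.04 and -0.80 on D3, of -0.64 and -1.13 on D5 and of -0.09 and -0.89 on D7. Repeat spots put an SD of 0.286 on a single-spot gap for D3, of 0.268 for D5 and of 0.494 for D7. That SD comes from miRNAs bright on both arrays. Since miR-133a-5p was bright on no wound array, it does not rate these gaps. Over the 7 scalings the gaps changed sign on each day: they ranged from -2.43 to 0.41 on D3, from -2.27 to 0.32 on D5 and from -1.39 to 0.32 on D7. The upper ends, all positive, were the gaps without normalization between arrays, which scaling by a single factor leaves unchanged. For a probe so near the detection level the arrays give no firm size.

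**Figure D3:**
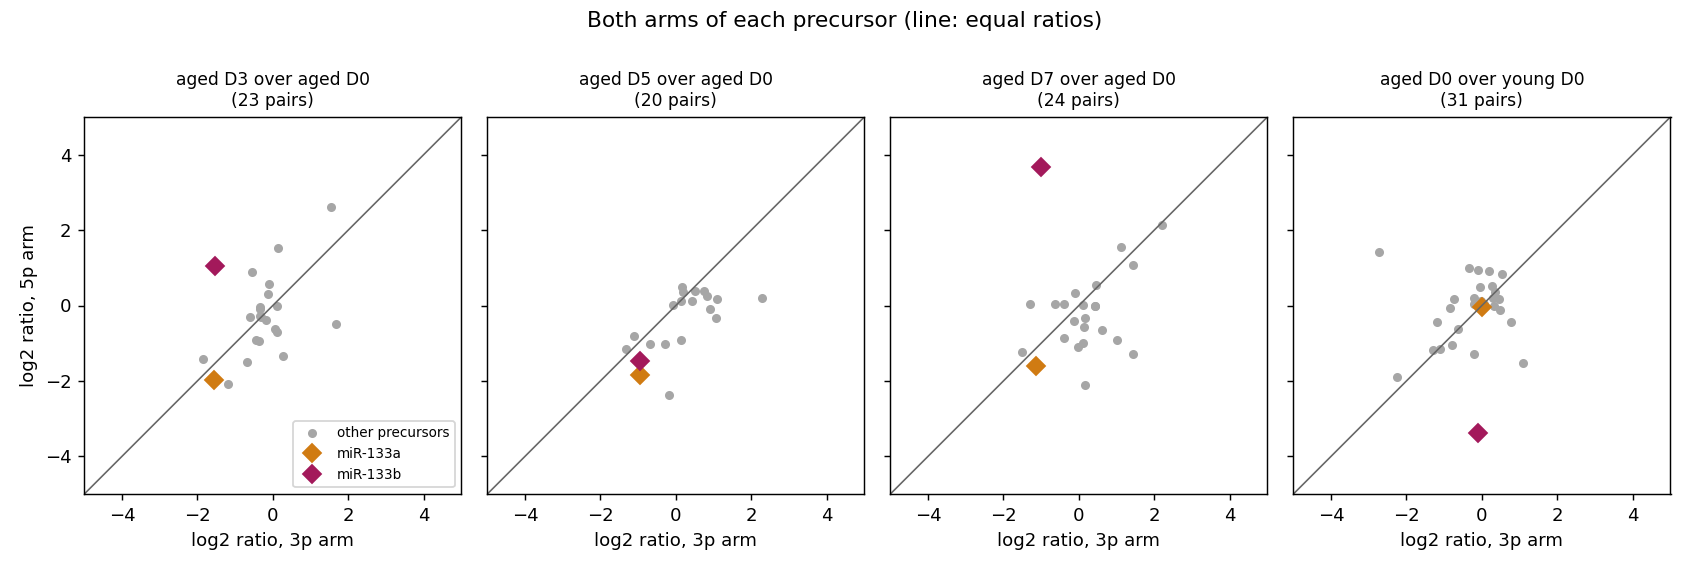
Log2 ratio of the 5p strand against that of the 3p strand for each hairpin with both strands measured (points; 20 to 31 hairpins per panel), with the line of equal ratios. miR-133b (purple) lies 4.68 above the line on D7 and 3.28 below it for aged over young skin, whereas miR-133a (orange) lies within 0.89 of the line in all 4 panels.

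In unwounded skin, miR-133b-5p was the sole muscle miRNA at least 2-fold apart between ages after quantile normalization. The count was 4 without normalization or with scaling to the median, 3 with spike controls and 2 with the 75th percentile. It was lower in aged than in young skin with a ratio of 0.0961, where 13.6% of 339 bright miRNAs were at least 2-fold lower, and only 2 of those 339 had a lower ratio. The other ratios of aged to young were 0.686 for miR-1a-3p, 1.08 for miR-206-3p, 1.0 for miR-133a-3p, 0.933 for miR-133b-3p and 0.979 for miR-133a-5p. On the scanner all 6 were brighter on the young array, and so was the median of the 210 miRNAs bright on both, at 0.462 aged to young without normalization. The direction for these 5 miRNAs therefore depended on the scaling, with ratios from 0.346 to 1.28 for miR-1a-3p, from 0.361 to 1.34 for miR-206-3p and from 0.550 to 2.04 for miR-133a-3p. miR-133b-5p was lower in aged skin under all 7 scalings, with ratios from 0.0491 to 0.182. Its gap to miR-133b-3p, -3.28 (a 9.71-fold divergence), was exceeded by 1 of 31 hairpins, miR-6965 with 4.15.

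The other strands and relatives of these miRNAs, and the miRNAs of heart muscle, were at or near the detection level on most arrays. Of the 12 listed, 1 was bright, on the young array. miR-1a-1-5p, the opposite strand of the miR-1a-1 hairpin, had scanned intensities of 111 at aged D0, 68.0 on D3, 55.1 on D5 (below the detection level), 129 on D7 and 305 at young D0, the young array again being the highest. miR-1a-2-5p and miR-206-5p were detected on no array. miR-133c, which shares its first 15 bases with miR-133b-3p, stayed at the level of the empty spots, with 61.4 to 99.5 on all arrays. Among the heart miRNAs, which lie in introns of myosin genes, miR-208a-3p and miR-208b-3p were detected on none and miR-499-5p on 2 arrays, D3 and D7, without being bright. There miR-499-5p was at 1.03 and 1.08 times the detection level, which 1768 and 1559 of the 1900 miRNAs passed on these arrays. miR-208a-5p, the opposite strand of miR-208a-3p, was detected on 4 arrays, at 1.69 times the detection level on D3, 1.17 on D5, 1.11 on D7 and 1.5 at young D0.

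The miRNAs with the most similar patterns were taken as the 5 with the smallest root mean square distance of log2 values, each centred on its own mean over the 5 arrays. For miR-133a-3p and miR-133b-3p these were, beside each other, miR-128-3p at 0.10 from both, and miR-378d at 0.16 and 0.17. miR-1a-3p was nearest to miR-200a-3p, an epithelial miRNA, at 0.36, and then to miR-133a-5p at 0.50. miR-206-3p was nearest to let-7b-5p at 0.24 and let-7k at 0.30. For miR-133b-5p no such neighbour was found close by: the nearest were miR-7081-5p at 0.95 and miR-7239-3p at 1.01, and miR-133b-3p lay at 1.98. On scanned intensity, miR-7239-3p and miR-199b-5p were likewise brighter on the D7 and young D0 arrays than on the 3 others, the dimmer of the high arrays being 10.5 and 6.49 times the brightest of the low ones. After normalization these factors were 7.71 and 2.21.

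Lists of miRNAs for other cells of skin were set beside the muscle miRNAs. The summed normalized level of the 6 muscle miRNAs was 31097 before wounding in aged mice and 56020 in young mice, with 13544 for the D3, 12996 for the D5 and 42907 for the D7 wound, and the D7 and young D0 sums contain the high value of miR-133b-5p. Such a sum is set mainly by the brightest probes, so sums are compared between arrays and not between lists. The muscle sum also counts miR-133a-3p and miR-133b-3p separately, although their probes may read the same RNA. Of the 5 keratinocyte miRNAs, 3 were at least 2-fold lower and 1, miR-200c-3p, at least 2-fold higher on D3, with a median log2 ratio of -1.09, and their summed level was 34076 at aged D0 and 20372 on D3. Of the 4 endothelial and smooth muscle miRNAs, 2 were lower on D3 (miR-143-3p with a ratio of 0.356 and miR-145a-5p with 0.444), with a median of -0.83. The leukocyte miRNAs went the other way: 3 of 5 were higher on D3, with a median of 1.55, and their summed level was 1088 at aged D0 and 5328 on D3. The 3 fibroblast miRNAs had a median of -0.35 on D3 and 1.12 on D7, and the 3 erythroid miRNAs -0.73 and -1.19. On D3 the medians of 5 of these 6 lists were thus below 0, that of the muscle list being the lowest. The other medians include probes at the detection level. miR-126a-5p (endothelial) and miR-144-3p (erythroid) were each above it on 1 array, with D3/D0 ratios of 0.903 and 0.925. miR-142a-3p (leukocyte) was below it at aged D0. The muscle median also counts miR-133a-3p and miR-133b-3p separately. The part of a change in cell makeup or in RNA quality in the muscle values was not tested.

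**Figure D4:**
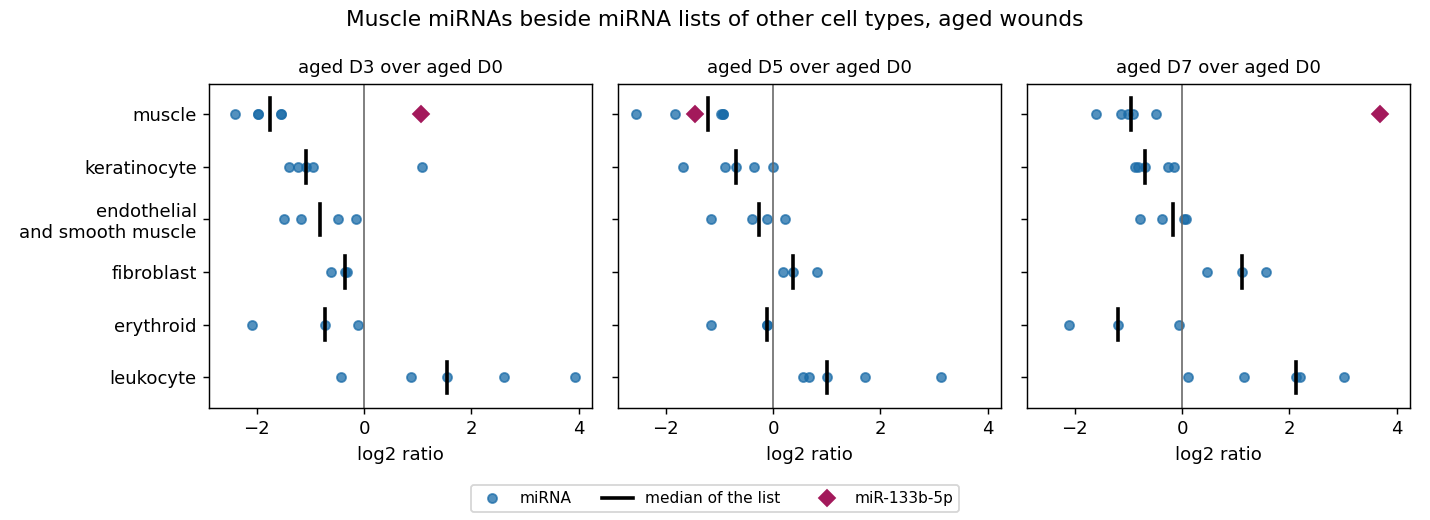
Log2 ratios of the D3, D5 and D7 wounds over aged D0 (quantile normalized) for the muscle miRNAs and for miRNA lists of other skin cells; points are single miRNAs, black bars list medians and the diamond miR-133b-5p. The muscle medians were -1.76, -1.22 and -0.96 and the leukocyte medians 1.55, 1.01 and 2.13 on the same days.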

How the data were processed

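Per the file headers, the deposited scanner tables give a median Cy3 intensity for every spot, linear and not normalized, with empty background columns. The authors also deposited 1 processed intensity per miRNA, normalized by a method not given in the sources used here. These processed values were used only as an alternative.

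Spot intensities were corrected for background by normexp in limma (offset 50), fitted on intensities alone because the design had foreseen background columns that are empty. Control spots were left out, log2 values were quantile normalized over the 5 arrays, and 2 spots per miRNA averaged. Detection was set at the 95th percentile of 4 empty spots, and comparisons across miRNAs used those above 2 times this level on at least 1 of the arrays compared. R 4.3.3, limma 3.58.1 and Python 3.11.15 were used. No test was made, since each condition has 1 array. The number of arrays limits the precision. The 5 cell-type lists other than muscle, the heart list and the 12 related miRNAs were taken from general knowledge, and members and lists were chosen with earlier results of these data known. Named miRNAs were the members, these lists and, for each member, the 5 most similar bright miRNAs. miR-7239-3p, miR-199b-5p and the hairpin miR-6965 were named after their values were seen. On simulated arrays drawn from aged D0 for D3 against D0, 35 of 40 miRNAs changed 4-fold and 1 of 1860 unchanged ones passed the 2-fold limit. The changed miRNAs had a median absolute log2 ratio of 1.439, smaller than the 4-fold change put in. All simulated arrays came from 1 array with small spot noise. They held no differences in background or scale between arrays and none between animals, so the false calls do not carry over to the real arrays. Sequences are from RefSeq (GRCm38.p6). Other scalings, background corrections, single spots and fold limits of 1.5 and 3 were tried.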

Additional observations from a re-analysis of the deposited data

How the results depend on the processing

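Of the 14 ratios of the 6 miRNAs to aged D0, or of aged to young skin, that were at least 2-fold, none changed direction in 168 alternative values, and of the 10 smaller ratios 18 of 120 did. The count of miRNAs lower on D3 was 5 except at a 3-fold limit, where it was 3. On D5 it was 3, but 6 without normalization between arrays, with scaling to the 75th percentile, cyclic loess, spike controls, the authors' processed values or a 1.5-fold limit, 5 with scaling to the median or the second spot alone, 4 with an offset of 16 or subtraction of the empty spots, and 2 at a 3-fold limit. On D7 it was 3, but 4 with the 75th percentile, cyclic loess or a 1.5-fold limit, 2 with scaling to the median, an offset of 100 or the first spot alone, and 1 at a 3-fold limit. Between aged and young skin it was 1, but 4 without normalization or with scaling to the median, 2 with the 75th percentile and 3 with spike controls. The miR-133a arm gap on D7 was -0.49, but 0.32 without normalization and with the 75th percentile, median and spike controls, -1.52 after subtraction of the empty spots and -1.39 in the authors' processed values. The settings that gave 0.32 apply at most 1 factor per array, which cancels in the gap, so they hold a single value. They differ from the main setting in the step between arrays, which there was quantile normalization. Why the subtracted and processed values differed was not tested. The miR-133b gaps of 4.68 on D7 and -3.28 for aged over young skin moved by less than the spot error under all alternatives. No paired analysis was possible because no condition has more than 1 array. For miR-133a-5p, near the empty spots on the wound arrays, signal over background limits what can be said.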
